A study of Secale cereale x Triticum turgidum subsp. durum with 48 samples.

Results

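CYP86-TA is one of 8 wheat genes that the Affymetrix Wheat array names in its control probe sets, and it is read here in every organ of a triticale tissue atlas. The members were all probe sets whose ID starts with AFFX-Ta_CYP86-TA: AFFX-Ta_CYP86-TA_3_at, AFFX-Ta_CYP86-TA_M_at and AFFX-Ta_CYP86-TA_5_at, 3 of the 61290 probe sets of the value table. They are called the 3', M and 5' probe sets after the ends of their IDs, and each was kept apart. All 3 were tested.

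The name places the gene in the CYP86 family of cytochrome P450 enzymes, and nothing else in the sources used here annotates it. In Arabidopsis, CYP86 enzymes hydroxylate fatty acids at the terminal (omega) carbon. The omega-hydroxy acids are building blocks of cutin, the polyester of the cuticle that covers leaves, stems and young shoots, and of suberin, which lines cell walls in roots, seed coats and other barrier tissues. Whether the triticale transcripts read by these probe sets encode an enzyme with that activity is not recorded in the files.

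The study profiled triticale, the cereal made by crossing wheat and rye, on 48 arrays in 16 groups, each an organ at one stage of the Zadoks scale of cereal growth (written Z). The seed groups were all AC Certa at soft dough (Z85): pericarp and epiderm (2 arrays each), and endosperm, embryo and crease (3 arrays each). Epiderm was the outermost layer of the grain, pericarp the layer between it and the endosperm, embryo included the scutellum, and crease was the vascular bundle of the ventral groove with most of the seed coat taken off. The vegetative groups of AC Certa were leaf at Z13 and Z23 (3 arrays each), flag leaf at Z49 (5 arrays), Z75 and Z85 (3 arrays each) and the stem internode above the crown at Z21, Z45, Z59 and Z75 (3 arrays each). Flag leaves at Z75 and Z85 were taken 22 and 30 days post anthesis, in early and late senescence. Root and coleoptile (3 arrays each; the coleoptile is the sheath through which the shoot emerges) came from 7-day seedlings (Z7) of another cultivar, AC Alta, so organ and cultivar cannot be told apart in comparisons of these organs with the rest. All plants grew in a temperature-controlled chamber.

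Array facts bear on the level that can be read. Signals are log2 values, and background was set by the array's 64 reporter probe sets, whose 95th percentile over the 48 arrays, 5.99, is called the reporter level. Array medians lay between 4.87 and 5.03, and 32.4% to 35.2% of tested probe sets exceeded the reporter level on an array. One extraction method served root and coleoptile, another served embryo, endosperm and pericarp, and a kit served crease, epiderm, leaf and stem, so that method and organ cannot be told apart across these sets. The 18S rRNA control probe set read 13.15 to 13.32 on the 12 stem arrays, whose RNA had an added clean-up. The same probe set spanned 5.15 to 13.32 over all 48 arrays. Markers of organs and cell types could not be checked by symbol, because the probe annotation used here names 1273 probe sets, nearly all by locus number.

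Of the 3 members, the 3' probe set varied most between groups. Its group means spanned 5.45 on the log2 scale, down to means under the reporter level, against 1.72 for the 5' probe set and 1.79 for the M probe set. That span of the 3' probe set was larger than that of 93.6% of all 61140 probe sets tested, whose median span was 1.30, and larger than that of 87.2% of the 21409 whose mean lay above the reporter level. The 5' and M spans were larger than those of 59.3% and 60.7% of all probe sets tested. The 5' probe set read between 6.85 and 9.12 and the M probe set between 6.25 and 8.69, above the reporter level on all 48 arrays. Signals of the 3' probe set lay between 3.39 and 10.20 and exceeded the reporter level on 25 arrays.

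The order of the 3' probe set's levels began with the outer layers of the grain and the starchy tissue. Pericarp had 9.02 and 10.20 (mean 9.61 ± 0.834, SD, n = 2). Endosperm had 8.79, 8.49 and 7.23 (8.17 ± 0.828, n = 3). Both pericarp arrays stood above all 3 endosperm arrays. Coleoptile had 8.00, 8.03 and 8.27 (8.10 ± 0.148, n = 3). Epiderm had 7.77 and 8.32 (8.04 ± 0.389, n = 2). Endosperm, coleoptile and epiderm overlapped one another on single arrays, and their neighbours in the order were not separated by the test.

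Stem up to heading, root, embryo and seedling leaf held the middle of the order. The stem had 7.40, 7.31 and 7.07 at Z21 (7.26 ± 0.171, n = 3). At Z59 it had 7.08, 7.28 and 7.18 (7.18 ± 0.1, n = 3). Root had 6.82, 6.62 and 6.90 (6.78 ± 0.144, n = 3). These arrays were all above the reporter level, and so were those of the stem at Z45. That stem had 6.46, 6.47 and 6.54 (6.49 ± 0.0436, n = 3). Embryo had 6.09, 6.43 and 5.93 (6.15 ± 0.255, n = 3), with 2 arrays above the reporter level and 1 just under it. Seedling leaf at Z13 had 5.56, 5.21 and 6.45 (5.74 ± 0.639, n = 3), with only the third array above the reporter level.

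In the last 6 groups of the order, 20 arrays in all, the 3' probe set was below the reporter level on every array, so their levels are upper bounds and have no order among themselves. Flag leaf at Z85 had 5.14, 4.81 and 4.51, and leaf at Z23 had 5.33, 4.23 and 4.70. The stem at Z75 had 4.78, 4.10 and 5.02. Leaf at Z23 overlapped the flag leaf at Z85 and this stem. Flag leaf at Z49 had 3.83, 4.43, 4.71, 4.70 and 4.91, and at Z75 it had 4.33, 4.59 and 4.49. Crease had 4.99, 4.10 and 3.39, which made it the only seed tissue whose 3' signal stayed under the background on all its arrays.

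**Figure D1:**
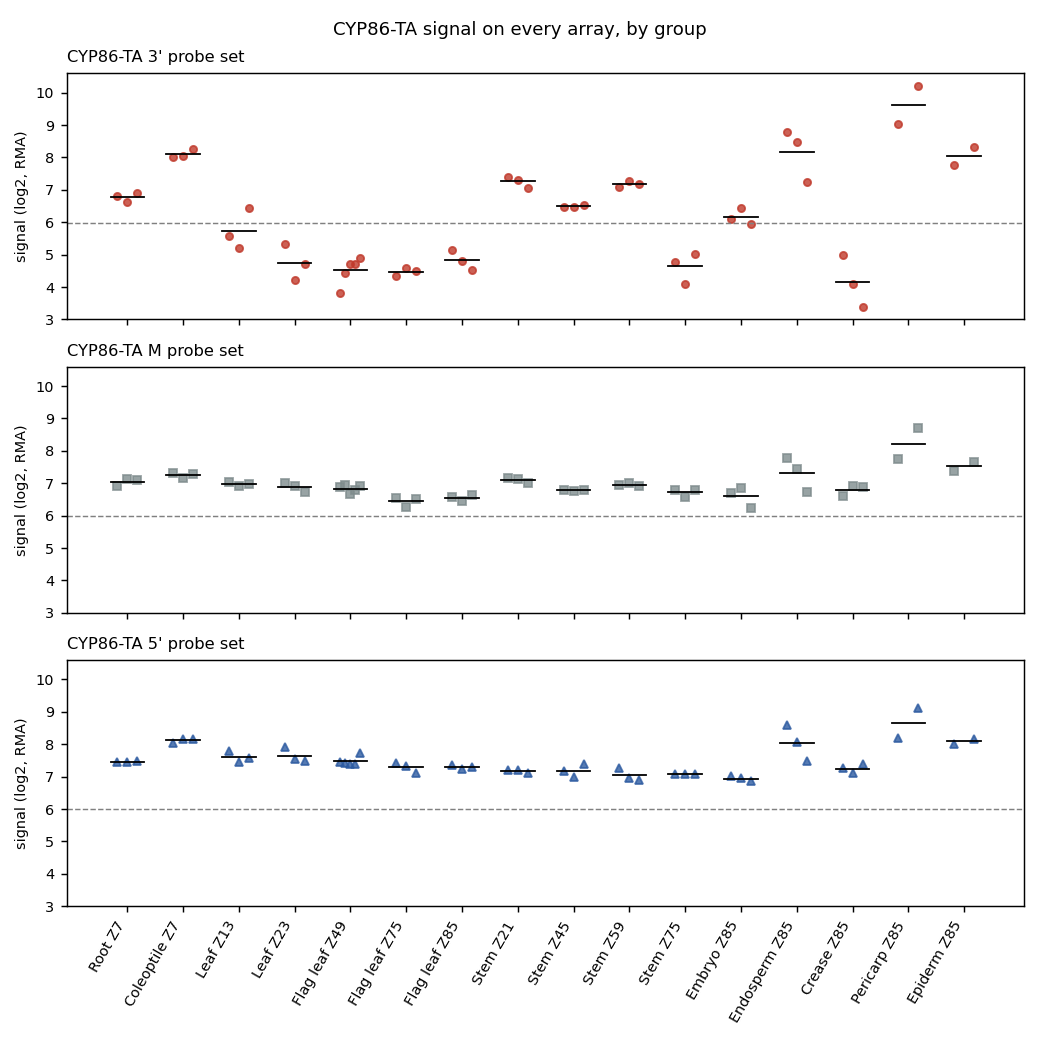
Signal (log2) of the 3', M and 5' CYP86-TA probe sets on each of the 48 arrays, 1 point an array, by organ and Zadoks stage, with black bars at group means and a dashed line at the reporter level of 5.99. The 3' points fall under the line in the mature leaf groups, the stem at Z75 and crease, while every M and 5' point lies above it.

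The test used here was limma with 1 mean per group over all 48 arrays and Benjamini-Hochberg adjustment over all probe sets, and a difference is called at an adjusted p under 0.05. Any difference among the 16 groups was called for all 3 members (3': F = 41.9, adjusted p = 5.85e-18; 5': F = 11.9, adjusted p = 1.34e-09; M: F = 9.2, adjusted p = 4.34e-08), as it was for 81.7% of all probe sets tested. Because 6 groups have only upper bounds in the 3' probe set, its differences were also fitted with every value raised to at least the 95th percentile of reporter probe sets on its array, a setting chosen after seeing the data. Values from it are called floored, and that fit kept the 32727 probe sets above this percentile on at least 2 arrays. Between a readable group and a group under the background, the floored difference is what could be read above background. Where a group under the background is part of a mean, raising it can enlarge a difference. Between groups with no raised value the difference stays the same, but its SE in the 3' probe set, pooled over all groups, is smaller. Of the 120 pairs of groups, 88 were called for the 3' probe set, 59 for the 5' and 48 for the M, where the median pair had 36.6% of all probe sets called. Floored, 78 pairs were called for the 3' probe set. The share of all probe sets called in that fit is not given here, and the 36.6% is not its background. Only 2 of the 15 neighbouring steps in the order of the 3' probe set were called, a count that was 1 with arrays centred on their medians or on reference genes and 4 with arrays centred on hybridization spikes. It was also 1 without the second pericarp array, the third endosperm array, the third array of leaf at Z13, the second array of flag leaf at Z85 or the third array of that group. Pericarp exceeded endosperm by 1.44 (SE 0.391, adjusted p = 0.00918, 12.5% of probe sets called), and the floored difference was the same (adjusted p = 0.000125 in limma). Seedling leaf at Z13 exceeded flag leaf at Z85 by 0.92 (SE 0.35, adjusted p = 0.0359, 36.8% called), but the floored difference was 0.49 and not called (SE 0.247, adjusted p = 0.0765). The other 13 steps, from 0.05 to 0.78, did not pass the test. Of these only epiderm over the stem at Z21, 0.78, was called floored (SE 0.276, adjusted p = 0.016). The order below pericarp is therefore mostly not resolved between neighbours.

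The M and 5' probe sets put pericarp first as well. The M probe set had 7.76 and 8.69 in pericarp (8.22 ± 0.658, n = 2), and its lowest group was flag leaf at Z75 with 6.53, 6.28 and 6.50 (6.44 ± 0.137, n = 3). The 5' probe set had 8.20 and 9.12 in pericarp (8.66 ± 0.651, n = 2), and its lowest group was embryo with 7.01, 6.96 and 6.85 (6.94 ± 0.0819, n = 3). The same 4 groups, pericarp, coleoptile, epiderm and endosperm, held the first 4 ranks for all 3 members. Below them the ranks parted. Leaf at Z23 was among the 6 groups under the background for the 3' probe set and 5th for the 5' probe set, where it had 7.90, 7.55 and 7.49. The stem at Z59 stood 6th for the 3' and 15th for the 5', where it had 7.28, 6.96 and 6.89. Over the 16 group means, which come from the same arrays, the correlation was 0.67 between the 3' and 5' probe sets, 0.85 between the 3' and M, and 0.86 between the 5' and M. Of the 24 planned comparisons, the 3' probe set was called in 16, 7 higher and 9 lower, the 5' in 10 (3 higher, 7 lower) and the M in 8 (2 higher, 6 lower). All 3 members were called in the same direction in 7 comparisons, the 3' probe set alone in 5, and none in 8. In these 24 comparisons the share of all probe sets called ran from 0.0278% to 61.2%. The number of calls of a typical probe set was not worked out, so these counts do not set the members apart.

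**Figure D2:**
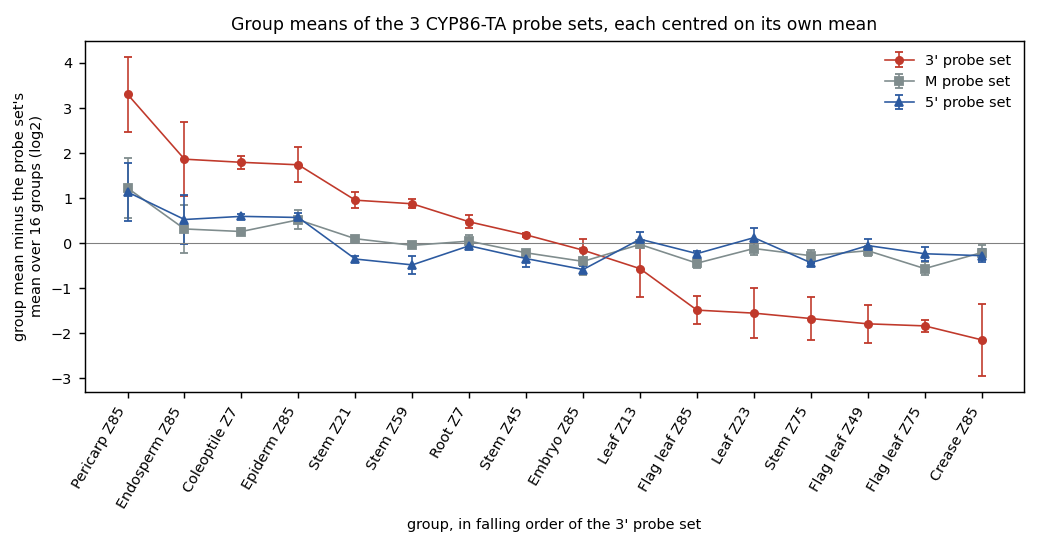
Group means of the 3 CYP86-TA probe sets, each minus its own mean over the 16 groups (log2), with groups in falling order of the 3' probe set and bars of 1 SD over arrays (n = 2 to 5). The members lie together in direction at the pericarp end, and the 3' probe set departs from the other two in mature leaf, the stem at Z75 and crease.

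The seed comparisons address how the tissues of a ripening grain differ. Pericarp, the layer under the grain's surface, was the highest of the 5 seed tissues in all 3 members, and crease and embryo each lay below the mean of the other tissues. Any difference among the seed tissues was called for each member (F = 63.1, 25 and 20.2 for the 3', 5' and M probe sets, adjusted p = 6.74e-15, 2.46e-09 and 3.08e-08 in limma), as for 56.8% of all probe sets. Pericarp exceeded the mean of the other 4 tissues by 2.98 in the 3' probe set (SE 0.33, adjusted p = 3.63e-09, 18.8% of probe sets called). That mean includes crease, which was under the background, and the floored difference was 2.44 (SE 0.233, adjusted p = 6.52e-11), so pericarp was at least 5.43-fold higher. It exceeded them by 1.08 in the 5' (SE 0.17, adjusted p = 5.01e-06) and by 1.17 in the M probe set (SE 0.17, adjusted p = 1.09e-06). Both pericarp arrays stood above every array of the other seed tissues in the 3' probe set. In the 5' and M probe sets the second array did so, while the first, at 8.20 and 7.76, lay under the first endosperm array. That endosperm array had 8.59 in the 5' and 7.79 in the M probe set. The second pericarp array was the higher in all 3 members.

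Crease, the vascular strand that feeds the grain, lay 3.83 below the mean of the other seed tissues in the 3' probe set (SE 0.283, adjusted p = 1.69e-14, 44.0% of probe sets called), and floored the difference was -1.76 (SE 0.2, adjusted p = 1.13e-09). Since all crease arrays were under the reporter level, the fold is a bound: the 3' probe set was at least 10.2-fold higher in pericarp, 3.78-fold in endosperm and 3.46-fold in epiderm than in crease, and no fold is given against embryo. The 5' probe set had 7.26, 7.10 and 7.38 in crease, 0.69 below the others (SE 0.146, adjusted p = 0.000159). The M probe set had 6.61, 6.90 and 6.87, 0.62 below the others (SE 0.146, adjusted p = 0.000562). Crease and epiderm were extracted by the same method, and there crease was lower by 3.88 in the 3', 0.85 in the 5' and 0.73 in the M probe set (adjusted p = 9.52e-11, 0.000802 and 0.00381 in limma, 35.5% called). In bulk tissue, fewer cells of a type and less RNA per cell cannot be told apart.

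Embryo was lower than the mean of the other seed tissues in all 3 members. The 3' difference was -1.35 (SE 0.283, adjusted p = 0.000143, 37.5% of probe sets called), and -1.81 floored (SE 0.2, adjusted p = 4.81e-10). The floored value is the larger with crease, which is part of that mean, raised from 4.16 to 6.25. Against crease alone the order could not be read in the 3' probe set. The embryo signal was 1.99 above the crease signals under the background (adjusted p = 1.13e-05 in limma, 39.5% called). The upper bound for crease, 6.25, lies above the embryo mean of 6.15. In the 5' and M probe sets embryo and crease did not differ past the threshold (adjusted p = 0.185 and 0.42 in limma). Against the mean of the other seed tissues the 5' difference was -1.07 (SE 0.146, adjusted p = 8.14e-08) and the M difference -0.87 (SE 0.146, adjusted p = 4.51e-06). Against endosperm and pericarp, which shared its extraction method, embryo was lower by 2.74 in the 3' (SE 0.315, adjusted p = 2.06e-09), by 1.42 in the 5' (SE 0.163, adjusted p = 1.99e-09) and by 1.17 in the M probe set (SE 0.162, adjusted p = 1.15e-07), where 35.5% of all probe sets were called. All embryo arrays were below every endosperm and pericarp array in the 3' and 5' probe sets. In the M probe set the second embryo array, at 6.84, stood above the third endosperm array, at 6.73.

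Endosperm and epiderm each stood above the mean of the other seed tissues in the 3' probe set, a mean that includes crease under the background, and both calls depended on 1 array. Endosperm, the starch store, was higher by 1.18 (SE 0.283, adjusted p = 0.00162, 22.8% of probe sets called), and without its first array the difference was 0.87 (adjusted p = 0.0549 in limma). Floored it was 0.64 and called (SE 0.2, adjusted p = 0.011). Its array at 7.23 was the lowest of the 3 in every member, 0.94, 0.56 and 0.59 under the group mean in the 3', 5' and M probe sets, while its correlation with the other endosperm arrays over all probe sets, 0.985, was the same as that of the first array. The 5' and M differences, 0.31 and 0.03, did not pass (adjusted p = 0.124 and 0.908). Epiderm was higher by 1.02 in the 3' probe set (SE 0.33, adjusted p = 0.0174, 25.6% called), and 0.75 without its second array (adjusted p = 0.31 in limma). Floored it was 0.48 and not called (SE 0.233, adjusted p = 0.101). Its 5' and M differences of 0.37 and 0.29 did not pass (adjusted p = 0.115 and 0.252).

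Epiderm, the surface layer, was lower than pericarp beneath it. It had 7.77 and 8.32 in the 3' probe set against 9.02 and 10.20 in pericarp, a difference of -1.56 (SE 0.428, adjusted p = 0.00667, 18.0% of probe sets called). The M difference of -0.70 was called (SE 0.22, adjusted p = 0.0193) and the 5' difference of -0.56 was not (SE 0.221, adjusted p = 0.0732). The groups did not overlap in the 3' probe set. With 2 arrays a group, the 3' call was lost without the second pericarp array (-0.98, adjusted p = 0.246) and without the first epiderm array (-1.29, adjusted p = 0.105, both limma).

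The stem comparisons follow the same internode from tillering to grain filling. The 3' probe set kept a readable level from Z21 to Z59 and fell under the background at Z75, while the 5' and M probe sets showed no called change over the same stages. Any difference among the 4 stem stages was called for the 3' probe set (F = 24.4, adjusted p = 5.07e-08), not for the 5' (F = 0.279, adjusted p = 0.919) or M probe set (F = 1.78, adjusted p = 0.295), where 41.9% of all probe sets were called.

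At Z75 the 3' probe set fell to 4.78, 4.10 and 5.02, against 7.08, 7.28 and 7.18 at Z59, a difference of -2.55 (SE 0.35, adjusted p = 1.73e-07, 27.2% of probe sets called). The stages did not overlap, and the stem at Z59 was at least 2.54-fold higher (floored difference -1.35, SE 0.247, adjusted p = 1.75e-05). The 5' probe set had 7.09 on all 3 arrays at Z75, against 7.28, 6.96 and 6.89 at Z59, a difference of 0.05 (95% interval -0.32 to 0.41, adjusted p = 0.914 in limma). The M probe set had 6.80, 6.58 and 6.79 at Z75, against 6.95, 7.01 and 6.90 at Z59, a difference of -0.23 (95% interval -0.59 to 0.14, adjusted p = 0.429 in limma). Against Z21 the 3' difference at Z75 was -2.63 (SE 0.35, adjusted p = 6.77e-08, 33.4% called), and the 5' and M differences, -0.08 and -0.38, did not pass.

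The earlier steps of the stem were smaller. From Z21 to Z45 the 3' difference was -0.77 (SE 0.35, adjusted p = 0.109, 26.4% of probe sets called), and from Z45 to Z59 it was 0.69 (SE 0.35, adjusted p = 0.305, 7.81% called). Both missed the threshold although the arrays of the 2 stages did not overlap in either step. Fitted on the 2 stages alone, both were called (adjusted p = 0.000711 and 0.00495 in limma). The floored fit called both as well (adjusted p = 0.01 and 0.0479). No value of these stages was raised there, so the differences were unchanged. Only the SE, 0.247, and the set of probe sets fitted differed. The SD within these 3 stages was 0.0436 to 0.171, against a pooled SD of 0.455 over all groups. In the 5' probe set the same steps were 0.01 and -0.14, and in the M probe set -0.31 and 0.17.

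The leaf comparisons cover seedling leaf, tillering leaf and the flag leaf into senescence. A difference among the 5 leaf stages was called for the 3' probe set (F = 4.61, adjusted p = 0.0121, 43.2% of probe sets called), and this rested on 1 array and on signals under the background. Without the third seedling array, at 6.45, F was 1.96 (adjusted p = 0.203), and floored it was 1.71 (adjusted p = 0.194). Floored, every leaf value but that of this array was a reporter level, so that F could hardly read the probe set. The M probe set was called as well (F = 3.32, adjusted p = 0.0472), a call lost with the replicate number as a block (F = 3.1), and the 5' was not (F = 1.77, adjusted p = 0.243). None of the single steps was called in any member. Leaf at Z23 lay 0.99 below seedling leaf in the 3' probe set (SE 0.35, adjusted p = 0.0882, 5.85% called), and the 5' and M differences were 0.03 and -0.09. Flag leaf at Z49 differed from leaf at Z23 by -0.24, -0.17 and -0.05 in the 3', 5' and M probe sets (adjusted p = 0.765, 0.628 and 0.921, 6.78% called).

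Senescence of the flag leaf moved no member past the threshold. Flag leaf at Z75 differed from Z49 by -0.05 in the 3' probe set, -0.18 in the 5' and -0.40 in the M (adjusted p = 0.94, 0.468 and 0.0791, 19.0% of probe sets called). The M probe set had 6.53, 6.28 and 6.50 at Z75, against 6.88, 6.93, 6.67, 6.78 and 6.91 at Z49, and these arrays did not overlap. Flag leaf at Z85 differed from Z75 by 0.35, 0.00 and 0.12 in the 3', 5' and M probe sets, in a comparison that called 0.0278% of all probe sets. From Z49 to Z85 the differences were 0.30, -0.18 and -0.28 (19.0% called). All flag leaf arrays were under the reporter level in the 3' probe set, so a fall in that signal could not have been seen.

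The change over the late stages was set against that of the stem in a single test. The 3' change from Z49 to Z75 in the flag leaf minus the change from Z59 to Z75 in the stem was 2.50 (SE 0.469, adjusted p = 8.14e-05, 20.4% of probe sets called). The flag leaf was under the background at both of its stages, so a fall there could not have been seen. Floored the value was 1.03 (SE 0.331, adjusted p = 0.0129). Its leaf part, -0.32, is only a change in the reporter levels of the arrays, so the floored value holds no reading of the flag leaf. The 5' and M values of that test were -0.23 and -0.17 (adjusted p = 0.577 and 0.699). At Z75 stem and flag leaf themselves differed by 0.16, -0.20 and 0.29 in the 3', 5' and M probe sets, none of them called (adjusted p = 0.799, 0.478 and 0.272, 25.2% called).

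**Figure D3:**
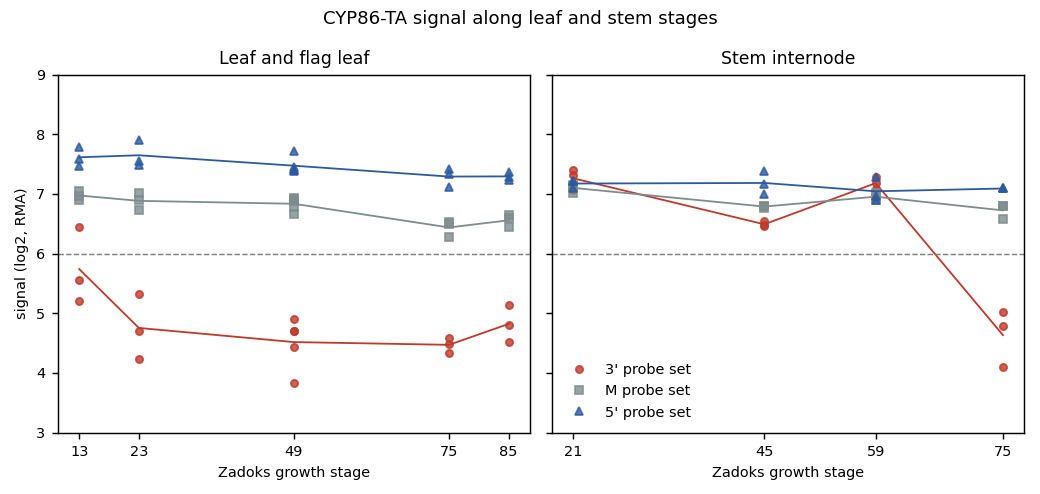
Signal (log2) of the CYP86-TA probe sets on each array against Zadoks stage in leaf and flag leaf (left) and in the stem internode (right), with lines through group means and a dashed line at the reporter level of 5.99. The 3' probe set drops below the line in the stem at Z75 and lies below it on all but 1 of the leaf arrays, and the 5' and M probe sets stay between 6.28 and 7.90 throughout.

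Averaged over stages, stem exceeded leaf by 1.53 in the 3' probe set (SE 0.163, adjusted p = 1.55e-10), in a comparison that called 61.2% of all probe sets. Of these 9 groups, 4 of leaf and the stem at Z75 were under the background, and the floored difference was 0.65 (SE 0.115, adjusted p = 4.48e-06). The 5' probe set went the other way, with stem lower by 0.34 (SE 0.084, adjusted p = 0.000619), and that sign depended on the scaling: with arrays centred on the hybridization spikes the 5' difference was 0.08 (adjusted p = 0.469). The M difference of 0.15 did not pass (adjusted p = 0.11). This was the only one of the 24 comparisons in which the 3' and 5' probe sets were both called in opposite directions. The 18S rRNA probe set was also higher in stem than in leaf, by 4.66 (SE 0.28, adjusted p = 1.78e-17), and its part in the CYP86-TA differences was not tested.

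The seedling comparisons are about the root and the coleoptile, which shared a cultivar and an extraction method. Root had 6.82, 6.62 and 6.90 in the 3' probe set against 8.00, 8.03 and 8.27 in coleoptile, a difference of -1.32 (SE 0.35, adjusted p = 0.00321, 25.6% of probe sets called). Root had 7.46, 7.46 and 7.48 in the 5' probe set against 8.05, 8.15 and 8.16 in coleoptile, a difference of -0.65 (SE 0.18, adjusted p = 0.00476). The organs did not overlap in either probe set. The M difference of -0.21 did not pass (adjusted p = 0.488), although its arrays, 6.90, 7.13 and 7.11 in root against 7.33, 7.17 and 7.28 in coleoptile, did not overlap either.

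Coleoptile exceeded the seedling leaf at Z13 by 2.36 in the 3' probe set (SE 0.35, adjusted p = 7.68e-07, 36.8% of probe sets called) and by 0.51 in the 5' (SE 0.18, adjusted p = 0.0249), and the M difference was 0.29 (adjusted p = 0.22). Seedling leaf was above the reporter level on 1 of its 3 arrays in the 3' probe set, where the floored difference was 1.76 (SE 0.247, adjusted p = 1.77e-07), and cultivar and extraction differ between these organs. Embryo was lower than root and coleoptile together by 1.29 in the 3', 0.85 in the 5' and 0.56 in the M probe set (adjusted p = 0.000541, 1.75e-05 and 0.00343 in limma, 39.8% called), again across cultivars and methods. The mean of the 5 seed groups exceeded that of the 11 vegetative groups by 1.34 in the 3' (SE 0.142, adjusted p = 9.76e-11), 0.40 in the 5' (SE 0.073, adjusted p = 1.02e-05) and 0.42 in the M probe set (SE 0.0729, adjusted p = 3.92e-06), where 56.6% of all probe sets were called. Floored the 3' difference was 1.13 (SE 0.1, adjusted p = 6.16e-13).

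**Figure D4:**
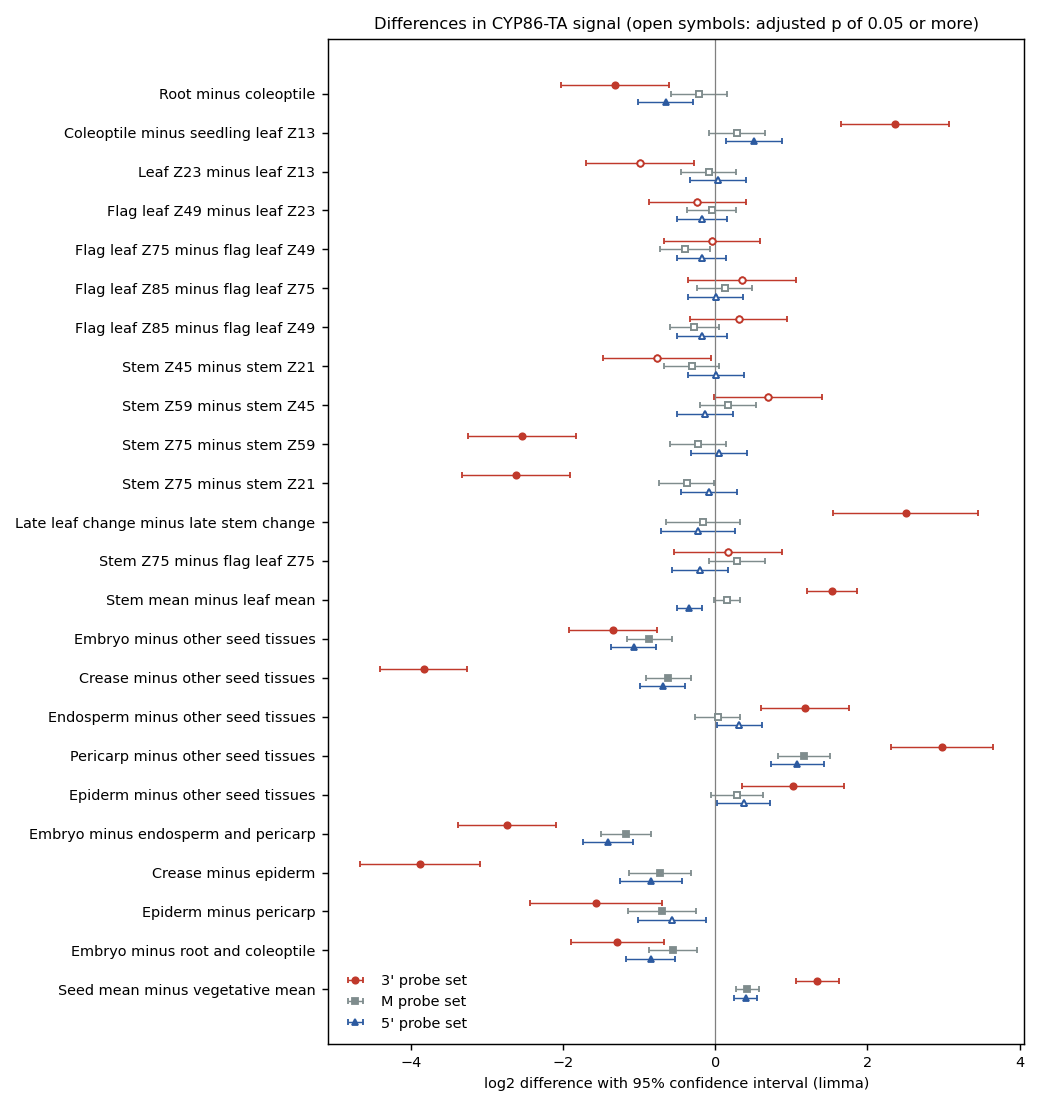
The 24 planned differences (log2, the first-named group minus the second) for each CYP86-TA probe set, with 95% confidence intervals from limma and open symbols where the adjusted p was 0.05 or more. The 3' probe set has the longer departures from 0, up to -3.88 for crease minus epiderm (not floored), and lies on the other side of 0 from the 5' probe set for stem minus leaf.

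Whether the members differ in their changes was tested on the difference between probe sets on the same array, a test chosen after their values had been seen. The 3' change minus the 5' change was -2.59 for the stem at Z75 against Z59 (SE 0.297, adjusted p = 3.43e-09) and 1.87 for stem against leaf (SE 0.138, adjusted p = 8.18e-15). It was -3.14 for crease against the other seed tissues (SE 0.241, adjusted p = 4.62e-14) and 1.90 for pericarp (SE 0.28, adjusted p = 1.41e-06). These values rest in part on 3' signals under the background. Floored they were -1.39 for the stem (SE 0.166, adjusted p = 4.69e-09), 0.99 for stem against leaf (SE 0.0775, adjusted p = 2.4e-14), -1.07 for crease (SE 0.135, adjusted p = 1.22e-08) and 1.36 for pericarp (SE 0.157, adjusted p = 6.06e-09), all called. Unfloored, it was -0.67 for root against coleoptile (95% interval -1.27 to -0.07, adjusted p = 0.104 in limma) and -0.27 for embryo against the other seed tissues (95% interval -0.76 to 0.21, adjusted p = 0.423 in limma), which did not pass. Floored these were -0.67 (adjusted p = 0.00112) and -0.73 (adjusted p = 1.29e-05), and both were called. For root against coleoptile no value was raised, and the SE was 0.166 in place of 0.297. In the embryo comparison the mean of the other tissues includes crease, whose 3' values were raised. The 5' change minus the M change was called for stem against leaf (-0.49, SE 0.0617, adjusted p = 6.73e-09) and not for crease (-0.07, adjusted p = 0.645) or pericarp (-0.09, adjusted p = 0.726).

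Probe sets at both ends of other wheat control genes give the same kind of difference, and here values are floored unless stated. Actin, ef1a and gapdh are left out, because their 3' probe sets exceeded the reporter level on 1, 0 and 0 arrays. The mean 3' minus 5' signal of CYP86-TA varied by 2.47 over the 16 groups, that of Sucsyn, named for sucrose synthase, by 3.15, that of G-6-PDH by 1.72 and that of Ubiquitin by 1.43. The Sucsyn 5' probe set exceeded the level of its array on 20 arrays and on 1 of the 12 of stem, so the Sucsyn values in stem are those of its 3' probe set over background. For the stem at Z75 against Z59 the 3' change minus the 5' change was -1.39 in CYP86-TA and -1.45 in Sucsyn. It was 0.55 in G-6-PDH and -0.10 in Ubiquitin. The CYP86-TA 3' values at Z75 were raised. For crease against the other seed tissues it was -1.07 in CYP86-TA, -0.87 in Sucsyn, -0.56 in G-6-PDH and -0.68 in Ubiquitin. For stem against leaf it was 0.99 in CYP86-TA, 1.51 in Sucsyn, 1.22 in G-6-PDH and 0.42 in Ubiquitin. Raised values enter the CYP86-TA, Sucsyn and G-6-PDH figures for stem against leaf, which were 1.87, 2.0 and 0.96 unfloored. The G-6-PDH 5' probe set exceeded the level of its array on 37 arrays. What parts the 2 ends of these genes was not tested, and probe sequences were not used here.

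**Figure D5:**
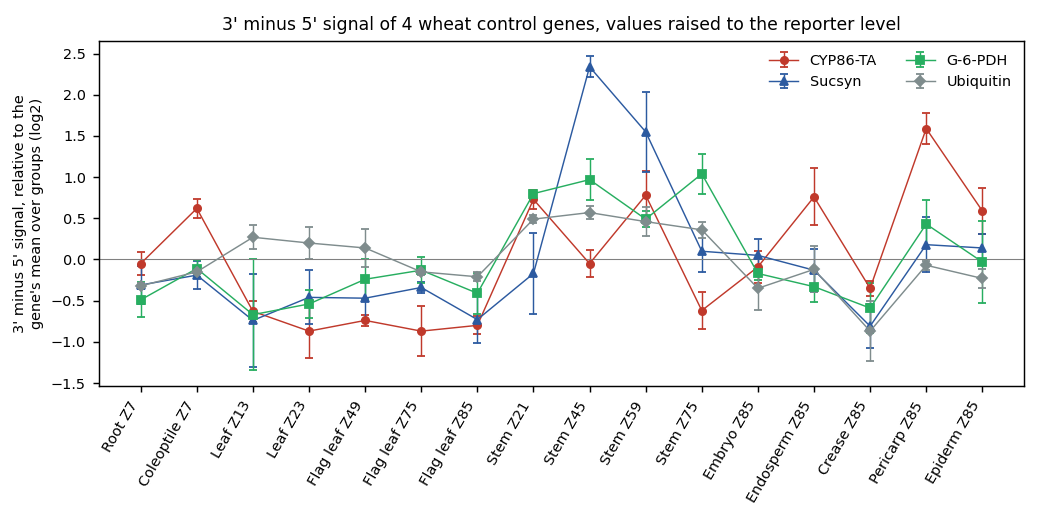
Mean 3' minus 5' signal of CYP86-TA, Sucsyn, G-6-PDH and Ubiquitin in each group, with values raised to the reporter level of their array, relative to the gene's mean over the 16 groups (log2, bars of 1 SD over arrays, n = 2 to 5). CYP86-TA has its highest value in pericarp (0.95 before the gene's mean is taken off), and Sucsyn has its highest in the stem at Z45 and Z59. In leaf at Z23, flag leaf, the stem at Z75 and crease every CYP86-TA 3' value was raised. Those points are upper bounds and have no order among themselves.

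Among the 25 probe sets of the 8 named wheat genes, the span of the 3' CYP86-TA probe set was the second largest, after the 8.03 of 18S rRNA. The M and 5' probe sets stood 10th and 12th, with spans near those of the Ubiquitin 5' probe set (1.46) and under those of all 3 G-6-PDH probe sets (3.39 to 3.73). Over the 48 arrays the correlation of deviations from group means was 0.77 between the 5' and M probe sets, 0.54 between the 3' and 5' and 0.49 between the 3' and M. The largest 5' and M deviations were all on endosperm and pericarp arrays. The third endosperm array had -0.94, -0.56 and -0.59 in the 3', 5' and M probe sets, and the second pericarp array 0.59, 0.46 and 0.46. The first crease array had 0.83, 0.01 and -0.18. How far the correlations hold without endosperm and pericarp was not tested.

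The probe sets whose 16 group means ran most like those of the 3' probe set were sought among the 19806 with a mean above the reporter level and a span of at least 1. Ta.254.1.S1_s_at came first (r = 0.97), with 10.39 in pericarp, 9.32 in endosperm, 4.72 in crease and 3.61 in the stem at Z75. Ta.6416.2.S1_a_at (r = 0.95) and Ta.6416.1.S1_at (r = 0.94), whose IDs share a cluster number, followed with 11.14 and 12.66 in pericarp and 6.38 and 6.63 in crease. All 3 had pericarp as their highest group. A correlation of at least 0.9 was reached by 23 of the 19806. Of these 19806, 101 had a higher correlation than the 0.85 of the M member and 954 a higher one than the 0.67 of the 5' member. The least alike were TaAffx.120659.1.S1_at (r = -0.92) and Ta.8184.1.A1_at (r = -0.91), both lowest in pericarp at 5.42 and 5.22. These means are under the reporter level, and the highest group means were 7.04 and 6.92, so their opposite course runs near the background. None of the 5 has a gene symbol in the annotation used here.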

How the data were processed

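RNA of 48 triticale samples was hybridised to Affymetrix Wheat arrays, and the members and lists were chosen with earlier results of these data known. The deposited values are log2 signals made by RMA, per the submitters' processing notes. Its version is not stated in those notes, and the log base was read from the range of the values (1.92 to 15). The values were used as deposited.

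One mean per group was fitted with limma 3.58.1 in R 4.3.3 to 61140 probe sets, the 25 of named wheat genes included and other array controls left out, with Benjamini-Hochberg adjustment over all of them (32 residual and 5.59 prior degrees of freedom). The fit was tested on simulated data. The probe set named for the 3' end in its ID was the main one. Folds against a group under the reporter level on all arrays are bounds: the dim group's value on each array was raised to that array's 95th percentile of reporter probe sets. The probe sets named for likeness were the 3 with the highest and the 2 with the lowest correlation of group means.

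The labels call the replicates biological without saying whether plants were shared, so the p-values measure the spread between these samples. No 2 arrays held identical values. Taken over all groups, arrays with equal replicate numbers did not deviate together in the median, which cannot exclude pairing within a few groups. The alternatives were 4 scalings, another variance prior, array weights, fits on the compared groups alone, a filter on low means, a replicate block, stricter thresholds, left-out arrays, the other members and, added after seeing the data, values raised to that percentile on every array. Cutin and suberin genes and organ markers were listed by symbol and could not be matched to the annotation used here, so they have no result. The number of arrays limits the precision.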

Additional observations from a re-analysis of the deposited data

Results flagged for a closer look

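In the 5' CYP86-TA probe set the fifth flag leaf array at Z49 read 7.72, apart from the other 4, which lay between 7.38 and 7.45. Its gap to the next array was 0.794 of the group's whole range, above Dixon's critical value of 0.71. Chance alone flags about 1 group in 20, and 3 were examined, since only this group has 4 or more arrays. The same array had the highest 3' value of the group, 4.91, and an M value of 6.91, just under the highest of 6.93.

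The test of late change between organs was past its threshold in the 3' probe set. The flag leaf at Z75 minus Z49 changed by -0.05 and the stem at Z75 minus Z59 by -2.55, and the test of the difference gave 2.5 (adjusted p = 8.14e-05 in limma, between 1.36e-06 and 0.0129 over its alternatives with the 3' probe set). All flag leaf arrays were below the reporter level at both stages, so a fall there could not have been seen. With every value raised to the reporter level of its array the test gave 1.03, the adjusted p of 0.0129. The leaf part of that value, -0.32, is only a change in reporter levels.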

How the results depend on the processing

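Of the 16 called differences of the 3' probe set, 16 kept their sign under every alternative run with that probe set, and 13 kept the call. The exceptions were endosperm against the other seed tissues (0.87 to 1.65 with single arrays left out, adjusted p = 0.0549 without its first), epiderm against the other seed tissues (0.75 to 1.3; 1.02 on the compared groups alone, adjusted p = 0.086; 1.02 and not past 0.01 with 0.0174) and epiderm against pericarp (-2.15 to -0.98). Stem Z45 minus Z21 and Z59 minus Z45 gained the call with array weights (-0.78 and 0.66) and on the compared groups alone (-0.77 and 0.69). Leaf Z23 minus Z13 ranged from -1.27 to -0.63 with single arrays left out and was called without the second array of Z13 or the first of Z23. A setting chosen after seeing the data raised every value to the reporter level of its array. There epiderm lost the call (0.48), as did the leaf stages (F = 1.71), where every leaf value but that of the third array of Z13 was raised. All flag leaf values were raised, so flag leaf Z85 minus Z49, -0.24 there, is a difference between reporter levels of arrays (5.85 and 6.09). It does not read the probe set. Stem Z45 minus Z21 and Z59 minus Z45 gained the call with unchanged differences (-0.77 and 0.69) and an SE of 0.247 in place of 0.35. The F value of the leaf stages ranged from 1.96 to 5.17. The 3' probe set was called in 16 of the 24 comparisons, the 5' in 10 and the M in 8, where 0.0278% to 61.2% of all probe sets were called. The number of called neighbours, 2, was 1 with median centring, 4 with spike centring, 1 with reference-gene centring, and 1 to 2 with single arrays left out. It was 2 with raised values, where pericarp over endosperm was shared and epiderm over stem Z21 took the other place. Spike centring moved the median of all probe sets by -0.41 to 0.67 and centring on the actin, ef1a and gapdh 3' probe sets, which exceeded the reporter level on 1, 0 and 0 arrays, by -0.33 to 0.57. The reporter level limits what can be read of the 3' probe set in 6 groups. The causes of these shifts were not tested.

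Among the uncalled 3' differences, flag leaf Z75 minus Z49 changed sign to 0.01 with median centring, 0.04 with quantile normalization, 0.34 with spike centring and 0.27 with reference-gene centring, and ranged from -0.22 to 0.05 with single arrays left out. Flag leaf Z49 minus leaf Z23 ranged from -0.5 to 0.05. Stem minus flag leaf at Z75 was -0.16 with reference-gene centring and ranged from -0.03 to 0.43.

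With the replicate number as a block no call of the 3' probe set changed, flag leaf Z75 minus Z49 changed sign to 0.15, and among the other 2 members the 1 call lost was the M probe set's for the leaf stages (F = 3.1). Deviations of arrays with the same number in different groups had a median correlation of 0.001, against -0.002 for different numbers. A correlation over 0.1 was reached by 15 of 331 same-number pairs and 22 of 746 others. A median over all groups cannot tell whether numbers pair arrays within a few of them.

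In place of the 3' probe set, the 5' gave no call for the leaf stages (F = 1.77), the stem stages (F = 0.279), endosperm (0.31), epiderm (0.37), epiderm minus pericarp (-0.56) and stem Z75 minus Z21 (-0.08). Its sign was the opposite for flag leaf Z85 minus Z49 (-0.18), the late changes of leaf and stem (-0.23), leaf Z23 minus Z13 (0.03), stem Z45 minus Z21 (0.01), Z59 minus Z45 (-0.14) and Z75 minus Z59 (0.05), stem minus flag leaf at Z75 (-0.2) and stem minus leaf (-0.34). The M probe set gave no call for the stem stages (F = 1.78), root minus coleoptile (-0.21), coleoptile minus leaf (0.29), endosperm (0.03), epiderm (0.29), stem Z75 minus Z21 (-0.38) and minus Z59 (-0.23) and stem minus leaf (0.15), and the opposite sign for flag leaf Z85 minus Z49 (-0.28) and the late changes (-0.17).

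Small 5' and M differences changed sign as well, and of these only the 5' value for stem minus leaf was a call (0.08 with spike centring). With spike centring the 5' values were 0.2 for flag leaf Z75 minus Z49, 0.07 for Z85 minus Z49, -0.13 for Z85 minus Z75, 0.44 for the late changes, 0.05 for stem Z59 minus Z45, -0.24 for stem Z75 minus Z59 and 0.02 for stem minus flag leaf at Z75, and the M values 0.14 for root minus coleoptile, -0.02 for flag leaf Z85 minus Z75 and 0.5 for the late changes. With reference-gene centring the 5' values were 0.13 for flag leaf Z75 minus Z49, 0.23 for Z85 minus Z49, 0.34 for the late changes and -0.2 for stem Z75 minus Z59, and the M values 0.13 for flag leaf Z85 minus Z49, 0.4 for the late changes, 0.01 for leaf Z23 minus Z13 and -0.04 for stem minus flag leaf at Z75. With quantile normalization the 5' values were -0.04 for leaf Z23 minus Z13 and -0.09 for stem Z45 minus Z21, and the M value was -0.07 for endosperm. With array weights the 5' values were -0.05 for leaf Z23 minus Z13 and -0.01 for stem Z75 minus Z59, and the M value was 0.05 for flag leaf Z49 minus leaf Z23. With single arrays left out the 5' values ranged from -0.09 to 0.12 for leaf Z23 minus Z13, -0.08 to 0.06 for flag leaf Z85 minus Z75, -0.09 to 0.1 for stem Z45 minus Z21 and -0.03 to 0.17 for stem Z75 minus Z59, and the M values from -0.13 to 0.02 for flag leaf Z49 minus leaf Z23 and -0.2 to 0.33 for endosperm.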
